A study of Mus musculus with 26 samples.

Results

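The epicardial and mesothelial genes described here are *Wt1*, *Tcf21*, *Bnc1*, *Aldh1a2*, *Sema3d*, *Upk3b*, *Upk1b*, *Msln* and *Lrrn4*, 9 of the 52454 gene symbols in an expression table of 10 RNA-seq libraries. They were chosen by gene symbol, with the higher level of *Wt1* in MEFs labelled *Dnmt3a* KO as the reason, so the comparison of these MEFs with WT MEFs is a description and not a test. The study asked which sites DNMT3A and DNMT3B, the de novo DNA methyltransferases, methylate in the embryo, and its RNA-seq asked whether genes changed expression when either enzyme was lost. Of its 26 samples, the 10 RNA-seq libraries are used here, 1 for each condition. Heart and liver came from male C57BL6 embryos at E14.5, around the middle of gestation, labelled WT or *Dnmt3a* KO, and the titles of both organs of a genotype label share a number, whose meaning is not stated. MEFs, which are fibroblasts grown from mouse embryos, came from male C57BL6 embryos of the same age, labelled WT or *Dnmt3a* KO, and were cultured with the solvent DMSO or with GSK126 at 10 µM for 2 days. GSK126 inhibits EZH2, the histone methyltransferase of a Polycomb repressive complex. The *Dnmt3a* KO embryos were bred from heterozygous carriers of the allele B6;129S4-Dnmt3a tm1Enl. The 2i-MEFs were of another strain and sex: they were female F1 (129X1/SvJ and MSM/Ms) cells from chimeric embryos of the same day, grown from ES cells that had been kept with MEK and Gsk3 inhibitors and in which *Dnmt3a* or *Dnmt3b* had been disrupted by CRISPR/Cas9. A chimera also holds cells of its host embryo, which antibiotic selection and a sort for the GFP that labelled the injected cells served to remove. A WT counterpart of the 2i-MEFs was not used here, so both of their libraries lack an intact control.

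The epicardium is the outer cell layer of the heart and the mesothelium is the related layer that lines the other body cavities and organs. Cells of both layers are epithelial, and in the embryo some of them undergo epithelial-mesenchymal transition and enter the organ beneath as fibroblasts and vascular smooth muscle cells. WT1, TCF21 and BNC1 (basonuclin 1) are transcription factors of these cells, ALDH1A2 makes retinoic acid, SEMA3D is a secreted guidance signal, and UPK3B, UPK1B, MSLN (mesothelin) and LRRN4 are proteins of the cell surface. *Tcf21* also marks fibroblast progenitors, and uroplakins are named after the urothelium of the bladder, where members of the family, *Upk1b* among them, form the surface plaques.

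Expression is given in FPKM, which divides the fragments of a gene by the length of its transcripts and by the size of the library, so levels of different genes can be set side by side. The depth of the libraries, estimated from the steps between low FPKM values, lay between 9117488 mapped reads in *Dnmt3b* KO 2i-MEFs and 26132882 in WT liver. With 1 library per condition no p-value was calculated, and each value carries a 95% interval for the counting of reads alone (exact Poisson, for the shortest annotated transcript), which leaves out the spread between embryos and cultures. *Dnmt3a* itself went against the genotype labels in MEFs and heart. Its level was 26.1 FPKM in WT MEFs with DMSO and 19.3 FPKM with GSK126, against 85.7 and 84.5 FPKM in the KO-labelled libraries, and at 55.0 FPKM in WT heart against 125 FPKM in KO-labelled heart. In liver it was lower in the KO-labelled library, with 12.7 against 53.5 FPKM, and the 2i-MEF libraries had 4.21 FPKM (*Dnmt3a* KO) and 23.9 FPKM (*Dnmt3b* KO). The table has 1 value per gene, which does not show whether the disrupted exons were transcribed, so libraries labelled *Dnmt3a* KO are called KO-labelled throughout. Directions between the labels hold for the labels as given and would be the opposite had they been exchanged, which was not tested. Tissue markers followed the tissue labels in summed level. The 9 cardiomyocyte genes had 55300 (WT) and 52010 FPKM (KO-labelled) in the hearts against 70.6 and 23.5 FPKM in the livers. The 7 hepatocyte genes had 18010 and 10990 FPKM in the livers against 33.6 and 7.32 FPKM in the hearts. All 10 fibroblast genes reached 1 FPKM in the 4 MEF and 2 2i-MEF libraries, and 9 of them did so in WT heart and WT liver.

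Promoter sequences from RefSeq were found for 6 of the 9 genes on GRCm38.p6, each from 250 bases before to 50 bases after the start of the gene in RefSeq. That start is the same base as in the files' coordinates for *Upk3b* and *Aldh1a2*, lies 7 bases upstream for *Bnc1*, 29 bases downstream for *Lrrn4* and 31 bases downstream for *Tcf21*, and lies 219 bases upstream for *Sema3d*, so the *Sema3d* window does not hold the start of the files' coordinates. Positions are counted from the RefSeq start. The sequences shown are those of *Upk3b*, *Lrrn4* and *Bnc1*, which have 1 annotated transcript each and were higher together in KO-labelled MEFs, and of *Tcf21*, which was high in heart and listed at 0 in WT MEFs. They are written 5′ to 3′ on the strand of the gene, and capitals mark a searched motif on either strand.
Upk3b promoter, chr5:136038246-136038545, plus strand: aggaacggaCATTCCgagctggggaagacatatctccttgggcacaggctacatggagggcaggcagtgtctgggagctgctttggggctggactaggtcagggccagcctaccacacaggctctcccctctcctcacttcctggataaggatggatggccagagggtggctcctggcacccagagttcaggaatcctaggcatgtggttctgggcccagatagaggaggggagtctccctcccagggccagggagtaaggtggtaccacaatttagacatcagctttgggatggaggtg
Lrrn4 promoter, chr2:132880813-132881112, minus strand: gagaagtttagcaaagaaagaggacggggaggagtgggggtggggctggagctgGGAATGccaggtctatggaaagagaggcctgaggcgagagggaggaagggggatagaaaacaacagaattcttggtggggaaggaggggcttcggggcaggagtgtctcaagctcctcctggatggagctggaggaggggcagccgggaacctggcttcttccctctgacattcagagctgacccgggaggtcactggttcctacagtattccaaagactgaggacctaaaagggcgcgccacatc
Bnc1 promoter, chr7:81992250-81992549, minus strand: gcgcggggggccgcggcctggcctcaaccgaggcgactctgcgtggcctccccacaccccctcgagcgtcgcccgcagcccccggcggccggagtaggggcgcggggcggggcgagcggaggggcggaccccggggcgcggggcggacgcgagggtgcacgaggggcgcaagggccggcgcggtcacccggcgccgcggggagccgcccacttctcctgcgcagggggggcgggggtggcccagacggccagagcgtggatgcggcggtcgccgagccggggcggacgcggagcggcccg
Tcf21 promoter, chr10:22820094-22820393, minus strand: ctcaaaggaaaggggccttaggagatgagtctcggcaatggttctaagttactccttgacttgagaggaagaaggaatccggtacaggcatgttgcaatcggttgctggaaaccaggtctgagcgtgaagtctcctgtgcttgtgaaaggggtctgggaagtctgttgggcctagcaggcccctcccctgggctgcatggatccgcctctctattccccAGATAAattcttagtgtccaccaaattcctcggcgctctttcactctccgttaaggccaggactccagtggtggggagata
The TEAD motif GGAATG, which 14.7% of 32851 RefSeq promoters of this length hold on either strand, was found in *Lrrn4* from base -196 and, on the opposite strand, in *Upk3b* from base -241. The GATA motif AGATAA, present in 11.2% of promoters, was found in *Tcf21* at -31, and the WT1 and EGR motif GCGTGGG, present in 5.04%, only in *Aldh1a2* at -128 among the 6 promoters. A match is a run of letters and not a measured binding site. The promoters differ in CG dinucleotides, the sites of DNA methylation. *Bnc1* and *Aldh1a2* hold 50 each, more than 99.1% of promoters, whereas *Tcf21* and *Sema3d* hold 8, *Lrrn4* 7 and *Upk3b* 2, against a median of 7 over all promoters.

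Among the transcription factors, *Wt1* (ENSMUSG00000016458.14, chromosome 2, 105126529 to 105173616, plus strand of mm10) was highest in heart, with 12.1 FPKM in WT against 13.4 FPKM in KO-labelled heart. It was at 3.26 FPKM in WT liver and 2.19 FPKM in KO-labelled liver. In MEFs it was at 1.03 FPKM (WT, DMSO), 0.982 FPKM (WT, GSK126), 5.42 FPKM (KO-labelled, DMSO) and 4.56 FPKM (KO-labelled, GSK126), and in 2i-MEFs at 1.57 FPKM in the *Dnmt3a* KO and 6.22 FPKM in the *Dnmt3b* KO library. Both WT MEF libraries thus lay at the bottom of the order, and the KO-labelled MEFs and the *Dnmt3b* KO 2i-MEFs lay between heart and liver, though with GSK126 the interval of the former overlapped that of WT liver. The WT MEF value with DMSO rests on 14 to 53 reads, depending on which of the 9 annotated transcripts they came from. *Wt1os*, the antisense RNA that starts 18 bases from the start of *Wt1* and runs away from it, stayed at or under 0.514 FPKM in all 10 libraries, was listed at 0 in both WT MEF libraries and in KO-labelled liver, and stands for at most 9 reads in KO-labelled MEFs.

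*Tcf21* (ENSMUSG00000045680.8, chromosome 10, 22817281 to 22820174, minus strand) was at 30.4 FPKM in WT heart and 29.8 FPKM in KO-labelled heart, and at 4.08 and 4.88 FPKM in the corresponding livers. It was listed at 0 in both WT MEF libraries, where 3 reads would have been 0.157 FPKM with DMSO and 0.146 FPKM with GSK126. In KO-labelled MEFs it was at 1.21 FPKM with DMSO and 0.621 FPKM with GSK126, and in 2i-MEFs at 1.46 FPKM in the *Dnmt3a* KO and 1.02 FPKM in the *Dnmt3b* KO library. The hearts stood apart from the livers, the livers from all fibroblasts, and the WT MEFs from the other fibroblasts by more than the counting intervals. Annotated genes overlap *Tcf21* (AC153369.1, antisense), *Bnc1* (4833418N17Rik), *Aldh1a2* (AC167017.1) and *Sema3d* (Gm8925 and Gm42909), and whether reads were counted by strand is not stated, so their reads could not be told apart here.

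*Bnc1* (ENSMUSG00000025105.9, chromosome 7, 81966672 to 81992292, minus strand) was at 3.42 FPKM in WT heart, 3.72 FPKM in KO-labelled heart, 3.07 FPKM in KO-labelled MEFs with DMSO and 4.23 FPKM with GSK126. The other 6 libraries lay between 0.533 FPKM in KO-labelled liver and 0.967 FPKM in *Dnmt3a* KO 2i-MEFs, with WT MEFs at 0.925 FPKM (DMSO) and 0.709 FPKM (GSK126). The gene therefore fell into a higher set of 4 libraries and a lower set of 6 that do not overlap in their counting intervals. Within each set the neighbours in the order had overlapping intervals.

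*Aldh1a2* (ENSMUSG00000013584.5, chromosome 9, 71215789 to 71296243, plus strand) was highest in heart, with 17.1 FPKM in WT against 15.1 FPKM in KO-labelled heart. It was at 7.03 FPKM in *Dnmt3b* KO 2i-MEFs and 6.30 FPKM in *Dnmt3a* KO 2i-MEFs, and in MEFs at 2.18 FPKM (WT, DMSO), 3.40 FPKM (WT, GSK126), 2.70 FPKM (KO-labelled, DMSO) and 4.10 FPKM (KO-labelled, GSK126). Liver was lowest, with 1.81 FPKM in WT against 0.791 FPKM in KO-labelled liver. *Aldh1a2* was the gene of the 9 with higher levels in both 2i-MEF libraries than in all 4 MEF libraries, and the intervals of the 2i-MEFs did not overlap those of any MEF library.

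*Sema3d* (ENSMUSG00000040254.11, chromosome 5, 12383385 to 12588948, plus strand) was nearly level over the 4 MEF libraries. It was at 5.96 FPKM (DMSO) and 5.95 FPKM (GSK126) in WT MEFs, at 6.36 and 6.57 FPKM in KO-labelled MEFs, and at 3.81 and 2.78 FPKM in *Dnmt3a* KO and *Dnmt3b* KO 2i-MEFs. Heart was at 4.89 FPKM in WT against 3.18 FPKM in KO-labelled heart, and liver at 1.11 and 0.606 FPKM. All 9 pairs of neighbours in the order of its 10 levels had overlapping counting intervals, more than for any other of the 9 genes, and 5 annotated transcripts of 708 to 6307 bases make its reads uncertain.

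Of the surface proteins, *Upk3b* (ENSMUSG00000042985.7, chromosome 5, 136038496 to 136046487, plus strand) was at 41.0 FPKM in WT heart and 33.8 FPKM in KO-labelled heart. In MEFs it was at 12.9 FPKM (WT, DMSO), 13.3 FPKM (WT, GSK126), 40.5 FPKM (KO-labelled, DMSO) and 88.0 FPKM (KO-labelled, GSK126). Liver had 4.57 FPKM in WT against 3.20 FPKM in KO-labelled liver, and 2i-MEFs had 2.66 FPKM in the *Dnmt3a* KO and 1.54 FPKM in the *Dnmt3b* KO library. KO-labelled MEFs thus reached the level of whole WT heart with DMSO and passed it with GSK126. With 6188 reads in its highest library, *Upk3b* is the most deeply measured of the single-transcript genes here.

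*Upk1b* (ENSMUSG00000049436.4, chromosome 16, 38773184 to 38800203, minus strand) was at 7.30 FPKM (WT, DMSO), 9.38 FPKM (WT, GSK126), 30.3 FPKM (KO-labelled, DMSO) and 92.5 FPKM (KO-labelled, GSK126) in MEFs. Heart had 11.9 FPKM in WT against 11.0 FPKM in KO-labelled heart, liver 1.22 and 1.02 FPKM, and 2i-MEFs 3.56 FPKM in the *Dnmt3a* KO and 1.95 FPKM in the *Dnmt3b* KO library. Both KO-labelled MEF libraries stood above every other library by more than the counting intervals.

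*Msln* (ENSMUSG00000063011.6, chromosome 17, 25748614 to 25754327, minus strand) was the gene of the 9 with all 4 MEF libraries above both hearts by more than the counting intervals. MEFs had 29.5 FPKM (WT, DMSO), 38.2 FPKM (WT, GSK126), 42.3 FPKM (KO-labelled, DMSO) and 124 FPKM (KO-labelled, GSK126), against 10.3 FPKM in WT heart and 11.8 FPKM in KO-labelled heart. *Msln* was low in 2i-MEFs, at 4.49 FPKM (*Dnmt3a* KO) and 5.18 FPKM (*Dnmt3b* KO), and in liver at 0.498 FPKM in WT against 0.223 FPKM in KO-labelled liver. The WT liver value stands for 1 to 26 reads, depending on which of its 9 annotated transcripts, of 288 to 2165 bases, they came from. The bounds of *Msln* and *Upk1b* differ by up to 125 bases between the files and the annotation that gave the transcript lengths, so the reads and intervals of both genes are approximate. *Lrrn4* (ENSMUSG00000043110.2, chromosome 2, 132868305 to 132880891, minus strand) was at 9.21 FPKM in KO-labelled MEFs with DMSO and 8.73 FPKM with GSK126, and at 8.54 FPKM in WT heart and 7.21 FPKM in KO-labelled heart. WT MEFs had 2.36 FPKM with DMSO and 1.56 FPKM with GSK126, 2i-MEFs 1.93 and 1.67 FPKM in *Dnmt3a* KO and *Dnmt3b* KO, and liver 1.08 FPKM in WT against 0.718 FPKM in KO-labelled liver. Like *Bnc1*, *Lrrn4* split into hearts and KO-labelled MEFs above and the other 6 libraries below.

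**Figure D1:**
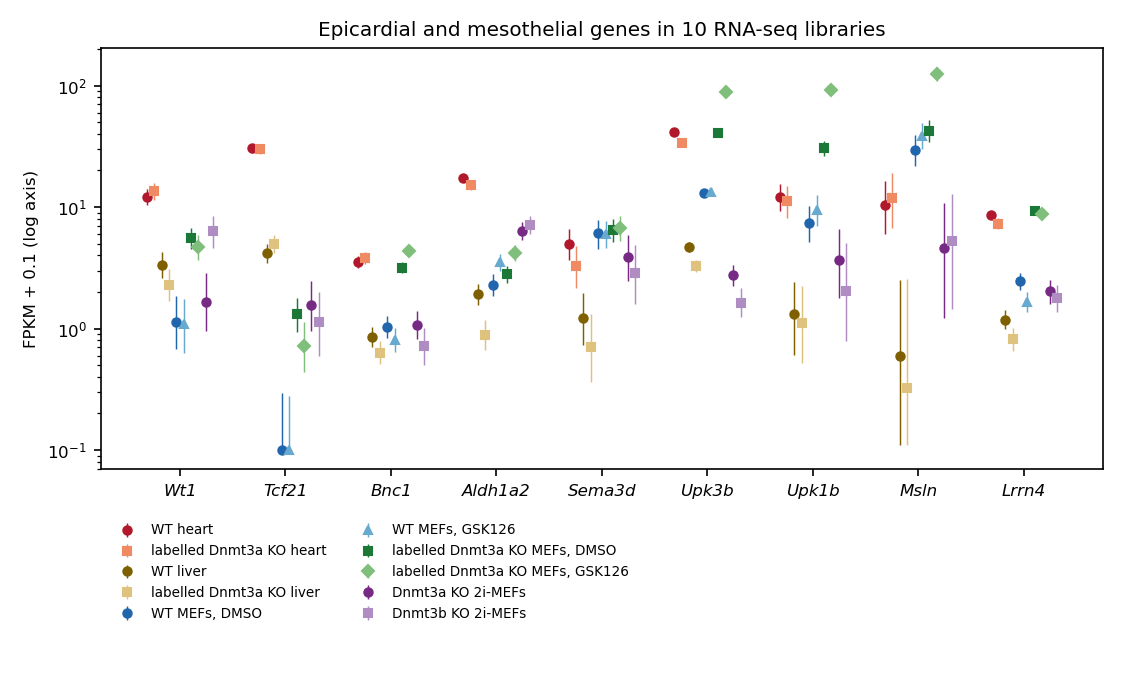
Level of the 9 genes in the 10 libraries, as FPKM + 0.1 on a log axis, with vertical lines for the 95% counting interval and 1 point per library. Hearts are highest for *Wt1*, *Tcf21* and *Aldh1a2*. A KO-labelled MEF library is highest by value for the other 6 genes, with *Upk3b*, *Upk1b* and *Msln* at 88.0, 92.5 and 124 FPKM under GSK126. At *Bnc1*, *Lrrn4* and *Sema3d* its interval overlaps those of libraries other than KO-labelled MEFs.

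The 9 genes did not follow one pattern over the libraries. Pearson's correlation of log2(FPKM + 1) over the 10 libraries was 0.97 between *Bnc1* and *Lrrn4*, 0.93 between *Sema3d* and *Msln*, and 0.91 between *Upk1b* and both *Upk3b* and *Msln*. *Wt1* and *Tcf21* correlated at 0.77, while *Tcf21* and *Msln* correlated at -0.38. These are descriptions over 10 libraries of 4 kinds of sample, among which organs or cultures of the same genotype label may share embryos. Of 12665 genes that reached 5 FPKM in at least 1 library, those closest to *Bnc1* were *Lrrn4* (0.97), *Krt7* (0.97), a keratin of simple epithelia, and *Rspo1* (0.94), a secreted enhancer of Wnt signalling. The genes closest to *Upk3b* were *Cyp2s1* (0.96), *Perp* (0.94) and *Wnt11* (0.94), those closest to *Lrrn4* were *Pim3* (0.95), *Smad6* (0.94) and *Wnt11* (0.93), and those closest to *Upk1b* were *Fam131a* (0.96), *Vnn1* (0.95) and *Cyp2s1* (0.95). *Msln* was closest to *Trim11*, *Fam212b* and *Sgsm2* (0.97 to 0.98), and *Sema3d* to *Trpm4*, *Pld2* and *Jun* (0.98 to 0.99). The genes highest in heart had other neighbours: *Fry* (0.95), *Akap1* (0.92) and *Pmpcb* (0.92) for *Wt1*, *Slc29a2*, *Adgrf5* and *Tnnt1* (0.99 each) for *Tcf21*, and *Cobl*, *Qk* and *Stk39* (0.98 each) for *Aldh1a2*.

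In heart against liver, all 9 genes were higher in heart, in both genotype labels and by more than the counting intervals. Differences are given as the log2 ratio of FPKM + 1, and a call is a difference of at least 2-fold on that scale. In WT, all 9 genes were called higher, where 20.6% of 14572 genes with at least 1 FPKM in either library were called higher and 21.1% lower. Their median log2 ratio was 2.55, against -0.09 over all genes tested. *Upk3b* was higher by 2.92 (interval 2.74 to 3.09, or 8.98-fold in FPKM), *Aldh1a2* by 2.69 (9.45-fold), *Tcf21* by 2.63 (7.45-fold), *Upk1b* by 2.55 (9.82-fold) and *Lrrn4* by 2.19 (7.87-fold). The smallest differences were at *Wt1* (1.62, 3.70-fold), *Sema3d* (1.48, 4.39-fold) and *Bnc1* (1.33, 4.53-fold). *Msln* differed by 2.92 with the widest interval, 1.02 to 4.09, because of its few reads in liver. Between the KO-labelled organs all 9 genes were again called higher in heart, where 23.7% of 14567 genes were called higher and 20.0% lower, with a median of 2.39 against 0.0007 over all genes. There the fold in FPKM ran from 5.25 for *Sema3d* to 19.1 for *Aldh1a2* among the 8 genes other than *Msln*. Fewer cells of a type and less RNA per cell cannot be told apart in these bulk samples. Of 15 other epicardial and mesothelial genes, 6 were called higher in WT heart and 3 lower (*Krt8*, *Krt18* and *Slc39a8*), with a median of 0.75. Heart and liver also differ in their other cells: the summed level of 10 fibroblast genes was 1503 FPKM in WT heart and 546.6 FPKM in WT liver, and that of 7 erythroid genes 19890 and 58880 FPKM. The part of these cells in the difference was not tested.

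**Figure D2:**
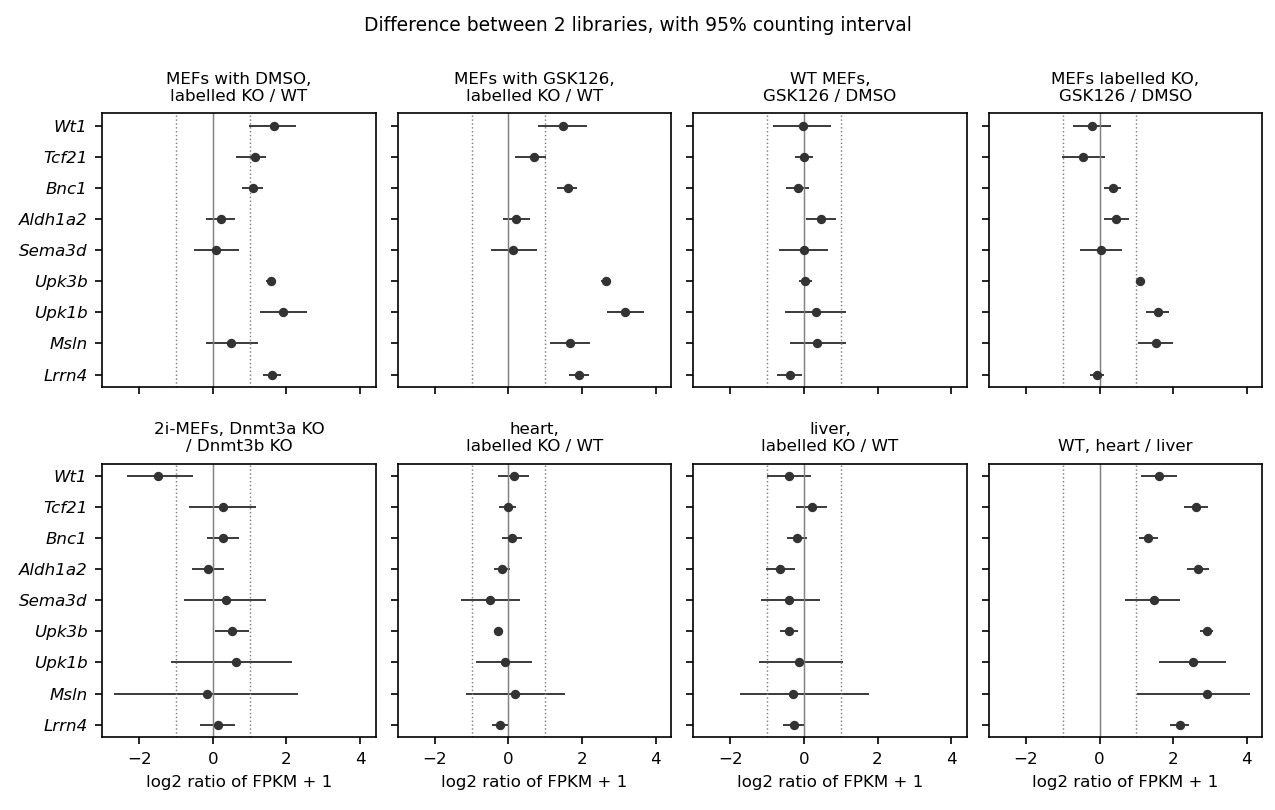
Log2 ratio of FPKM + 1 of each gene in 8 comparisons, with 1 point per gene. Horizontal lines set the lower 95% counting bound of each library against the upper bound of the other, and are wider than a 95% interval of the ratio. The solid vertical line marks no difference and dotted lines mark 2-fold. All 9 genes lie right of 2-fold in WT heart against liver, 6 do so in KO-labelled MEFs against WT with DMSO, and none does in heart or liver between the genotype labels.

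Between KO-labelled MEFs and WT MEFs with DMSO, the comparison in which *Wt1* was chosen, 6 of the 9 genes were at least 2-fold higher and none was lower. Over all 13695 genes tested, 4.24% were called higher and 2.02% lower. The 6 were the transcription factors *Wt1* (1.66, 5.25-fold in FPKM), *Tcf21* and *Bnc1* (1.08, 3.32-fold), and the surface proteins *Upk1b* (1.91, 4.15-fold), *Lrrn4* (1.61, 3.91-fold) and *Upk3b* (1.58, 3.14-fold). *Tcf21* was listed at 0 in WT, so its ratio of 1.14 depends on the added 1, and with its WT value set to 3 reads it is 0.93 (at least 7.70-fold in FPKM) and the count of called genes is 5. The other 3 genes had counting intervals that span 0, with *Msln* at 0.50, *Aldh1a2* at 0.22 and *Sema3d* at 0.08. The *Msln* interval rests on its shortest transcript, with 47 reads in WT and 96 in the KO-labelled library. Its longest transcript would give 1038 and 2120 reads, so the width of that interval depends on the transcript. The median was 1.14, or 1.08 with *Tcf21* at its bound, against 0.04 over all genes tested. *Bnc1* and *Tcf21* lay just inside the 2-fold limit and *Msln* was the first outside it.

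With GSK126, KO-labelled MEFs were again at least 2-fold higher than WT MEFs for 6 genes and lower for none, where 2.88% of 13581 genes were called higher and 2.95% lower. *Msln* (1.67, 3.24-fold) was among them and *Tcf21* (0.70) was not. *Tcf21*, at 0.621 FPKM against a listed 0, was under the 1 FPKM limit for testing in both libraries, and its ratio depends on the added 1: it was at least 4.26-fold higher in FPKM when WT is set to 3 reads, and with 0.1 added in place of 1 its ratio was 2.85 and 7 of the 9 genes were called. The differences of *Upk1b* (3.17, 9.86-fold), *Upk3b* (2.64, 6.63-fold), *Lrrn4* (1.93, 5.60-fold) and *Bnc1* (1.61, 5.97-fold) were larger by value than with DMSO, beyond the counting intervals at *Upk1b* and *Upk3b*, and that of *Wt1* was 1.49 (4.65-fold). *Aldh1a2* (0.21) and *Sema3d* (0.12) again had intervals that span 0. The median was 1.61, with or without *Tcf21* at its bound, against 0.0058 over all genes tested. Whether the cultures with DMSO and with GSK126 came from the same embryos is not stated, so both comparisons may rest on the same cells and are not independent.

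**Figure D3:**
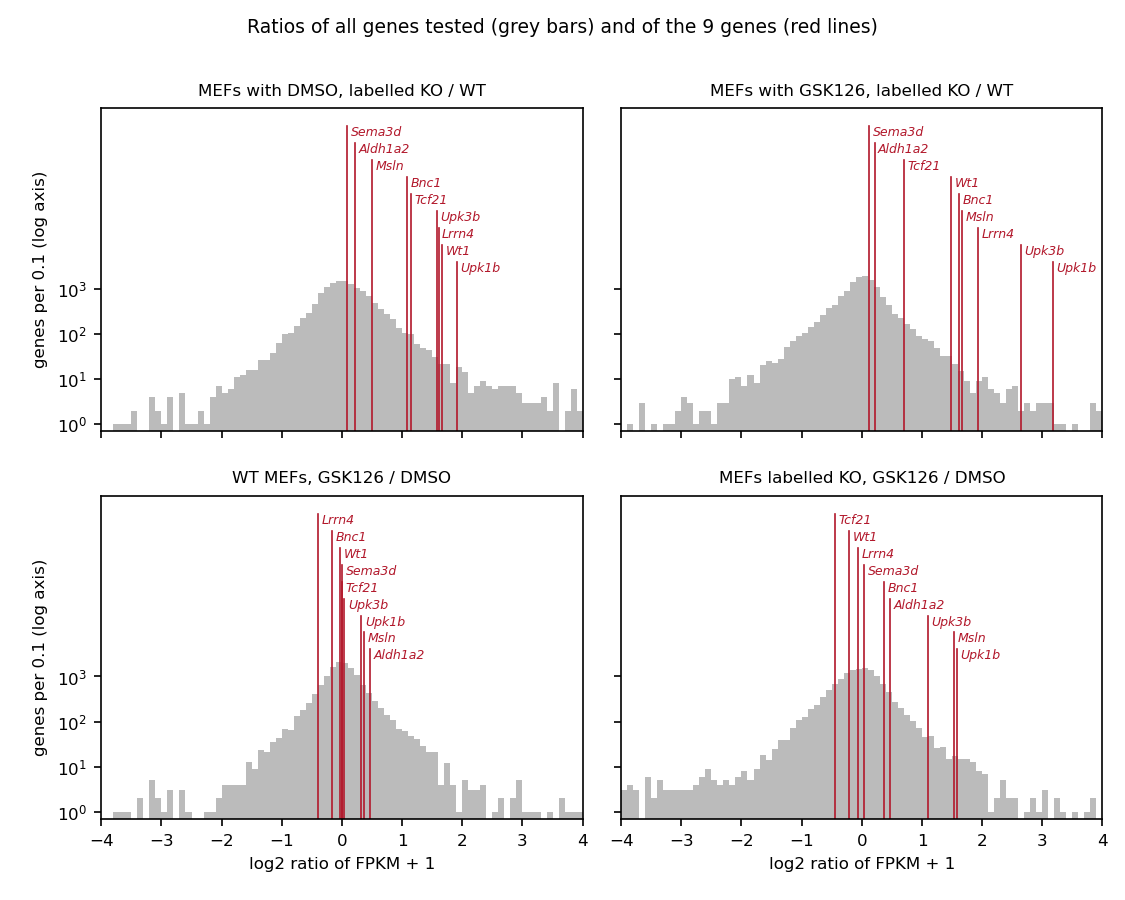
Number of genes per 0.1 of the log2 ratio of FPKM + 1 in the 4 comparisons of MEFs (grey bars, log axis), with the 9 genes as labelled red lines whose heights only separate the names. Ratios beyond the drawn range of the horizontal axis are not shown. *Upk1b* and *Upk3b* lie far right in KO-labelled MEFs against WT with GSK126 (3.17 and 2.64), and in WT MEFs all 9 lines lie between -0.39 and 0.47.

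GSK126 against DMSO gave no 2-fold difference at any of the 9 genes in WT MEFs, where 2.17% of 13490 genes were called higher and 1.59% lower. Their ratios ran from -0.39 at *Lrrn4* to 0.47 at *Aldh1a2*, the genes whose counting intervals left out 0, and the median was 0. *Upk3b*, at 0.04, had an interval of -0.15 to 0.23, so a 2-fold difference lay outside what its reads allow. In KO-labelled MEFs, the surface protein genes *Upk1b* (1.58, interval 1.26 to 1.90, 3.05-fold), *Msln* (1.53, interval 1.06 to 2.01, 2.93-fold) and *Upk3b* (1.10, interval 1.02 to 1.18, 2.17-fold) were at least 2-fold higher with GSK126, and none of the 9 was lower. Over all 13654 genes tested, 2.01% were called higher and 3.25% lower there, and the medians were 0.36 for the 9 genes and -0.04 for all. *Aldh1a2* was higher by 0.46, as in WT MEFs, and *Bnc1* by 0.36 (interval 0.13 to 0.59). *Lrrn4* (-0.07), *Wt1* (-0.21), *Tcf21* (-0.45) and *Sema3d* (0.04) had intervals that span 0. The ratio of GSK126 to DMSO was larger in KO-labelled MEFs than in WT MEFs by 1.26 at *Upk1b*, 1.17 at *Msln* and 1.06 at *Upk3b*, and by -0.0071 at *Aldh1a2*. With 1 library per condition these differences between the labels could not be tested, and they rest on the libraries that gave the comparisons above.

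The other genes of these cell layers were read from a list of 15. In MEFs with DMSO, *Aldh1a1*, which also makes retinoic acid (22.5 FPKM in the KO-labelled library against 3.65 in WT), the membrane protein *Gpm6a* (6.81 against 0.830), *Krt8*, a keratin of simple epithelia (4.62 against 1.04), and *Rspo1* (7.94 against 2.26) were at least 2-fold higher. *Tbx18*, a transcription factor of the epicardium, was lower, with 1.72 against 4.59 FPKM. With GSK126, 5 of the 15 were higher, the same 4 and *Cldn15* (3.12 against 0.814 FPKM), and *Tbx18* was again lower (1.49 against 4.39 FPKM). Over all genes tested, 4.24% were called higher and 2.02% lower with DMSO, and 2.88% and 2.95% with GSK126. The list's medians were 0.35 with DMSO and 0.82 with GSK126. Its summed level was 259.0 FPKM in WT and 258.1 FPKM in KO-labelled MEFs with DMSO, a difference of less than 1 FPKM, and 276.1 and 422.2 FPKM with GSK126. GSK126 called none of the 15 in WT MEFs. In KO-labelled MEFs it called 3 higher and none lower: *Anxa8* (68.3 against 19.6 FPKM), *Krt19* (42.0 against 19.8 FPKM) and *Slc39a8* (6.03 against 2.48 FPKM). *Anxa8* was also at 44.3 FPKM with GSK126 and 25.5 FPKM with DMSO in WT MEFs. The genes of this list were named here because they passed the call, after their values were seen.

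**Figure D4:**
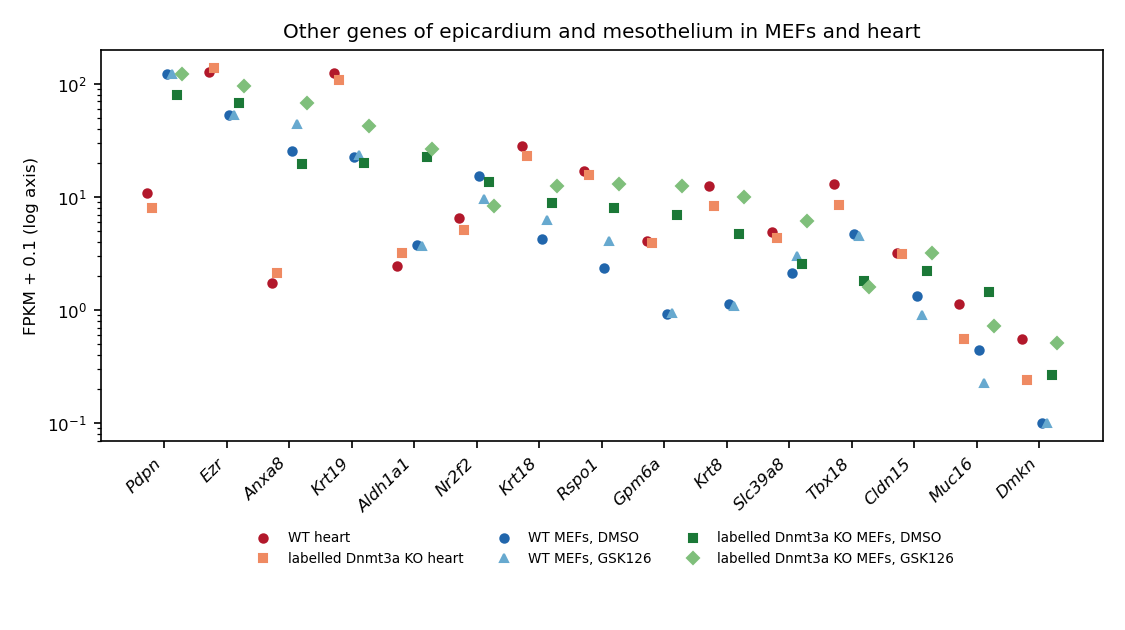
Level of 15 other genes of epicardium and mesothelium in the hearts and the 4 MEF libraries, as FPKM + 0.1 on a log axis, ordered by their mean in MEFs. *Aldh1a1*, *Gpm6a*, *Krt8* and *Rspo1* are at least 2-fold higher in both KO-labelled MEF libraries than in WT, and *Tbx18* is lower.

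Of the uroplakin family, *Upk1b* and *Upk3b* were the 2 members that reached 1 FPKM. *Upk3a*, a component of the bladder plaque, was listed at 0 in all 10 libraries, *Upk2* was at or under 0.12 FPKM, *Upk1a* at or under 0.82 FPKM and *Upk3bl* at or under 0.97 FPKM. The 5 urothelium genes summed to at most 0.296 FPKM in the 4 MEF libraries. Kidney and gonad, where WT1 is also a regulator, had low levels of their genes in MEFs: 10 genes summed to between 7.20 and 11.5 FPKM, and *Nphs1* and *Nr5a1* were among those listed at 0 in all 4 libraries. With GSK126, *Gata4* (1.97 against 0.281 FPKM) was called higher and *Six2* (2.34 against 6.04 FPKM) lower in KO-labelled MEFs. Among all genes tested between the labels, 4.24% were called higher and 2.02% lower with DMSO, and 2.88% and 2.95% with GSK126. Of 18 genes of the retinoic acid pathway, *Aldh1a1* was called higher and 3 genes lower in KO-labelled MEFs under each treatment. The genes lower with DMSO were the retinoic acid binding proteins *Crabp1* (129 against 553 FPKM) and *Crabp2* (35.2 against 85.9 FPKM) and the receptor *Rarb* (0.359 against 3.13 FPKM). With GSK126 they were *Crabp1*, *Rarb* and the retinol dehydrogenase *Rdh10* (3.46 against 10.5 FPKM). None of 9 epithelial-mesenchymal transition genes was called in MEFs in any of the 4 comparisons. Few of all genes tested were called there, with 1.59% to 4.24% in each direction. *Cdh1*, which marks epithelia, was at or under 0.755 FPKM in all 4 libraries. Of 14 class 3 semaphorins and receptors, *Sema3a* (log2 ratio 1.03) and *Sema3b* (log2 ratio 1.10) were called higher with DMSO, and *Sema3b* alone with GSK126.

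Markers of other cells moved between the MEF libraries as well. The summed level of 10 fibroblast genes was 12210 FPKM in WT against 9553 FPKM in KO-labelled MEFs with DMSO, and 9186 and 6235 FPKM with GSK126. None of the 10 was called with DMSO, and 3 were called lower with GSK126. Over all genes tested, 4.24% were called higher and 2.02% lower with DMSO, and 2.88% and 2.95% with GSK126. Between treatments in KO-labelled MEFs, 2 of the 10 were called lower, with a median of -0.45, where 3.25% of all genes were called lower. The 6 smooth muscle genes summed to 2015 FPKM in WT and 2647 FPKM in KO-labelled MEFs with DMSO, and to 2105 and 1877 FPKM with GSK126. With DMSO, *Mylk*, a kinase of smooth muscle myosin, was called higher in KO-labelled MEFs (15.5 against 6.59 FPKM), and with GSK126 *Myh11*, a smooth muscle myosin, was called lower (1.06 against 3.43 FPKM). The 9 cardiomyocyte genes summed to 2.94 FPKM in WT and 10.4 FPKM in KO-labelled MEFs with DMSO, with the troponins *Tnnt2* (6.42 against 1.49 FPKM) and *Tnni3* (2.00 against 0.361 FPKM) called higher, and to 10.7 and 12.2 FPKM with GSK126, with the myosin light chain *Myl7* called higher (1.82 FPKM against a listed 0). *Cdh5*, an endothelial cadherin, was called lower with DMSO (0.0514 against 1.90 FPKM). Endothelial genes summed to at most 5.50 FPKM and the 4 lung epithelium genes to at most 0.0784 FPKM in the MEF libraries. Higher levels of 6 of the 9 genes thus stood beside lower summed levels of fibroblast genes, and the part of cell composition in them was not tested.

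In 2i-MEFs, *Wt1* was the only one of the 9 genes at least 2-fold apart between the KO libraries. With 1.57 FPKM in *Dnmt3a* KO against 6.22 FPKM in *Dnmt3b* KO, its log2 ratio was -1.49 (interval -2.34 to -0.54), which is 3.97-fold higher in *Dnmt3b* KO. Over all 13605 genes tested, 5.52% were called higher in *Dnmt3a* KO and 3.49% lower. *Upk3b* was higher in *Dnmt3a* KO by 0.53 (interval 0.04 to 0.99), and the intervals of the other 7 genes span 0. The median of the 9 was 0.28, against 0.03 over all genes tested. For *Msln*, 4 reads on the shortest transcript gave an interval of -2.68 to 2.31. Its longest transcript would give 96 reads in *Dnmt3a* KO and 93 in *Dnmt3b* KO, so the width of that interval depends on the transcript. *Wt1* was thus higher in the KO-labelled library in MEFs from embryos and lower in *Dnmt3a* KO than in *Dnmt3b* KO in 2i-MEFs, which are comparisons with different controls. Of the 15 other epicardial and mesothelial genes, *Krt18* was called, with 1.14 FPKM in the *Dnmt3a* KO and 7.27 FPKM in the *Dnmt3b* KO library. Markers of other cells also differed between the KO libraries. Smooth muscle genes summed to 3005 FPKM in the *Dnmt3a* KO against 4549 FPKM in the *Dnmt3b* KO library, with *Myh11* (4.64 against 15.3 FPKM) and *Cnn1* (100.2 against 252.8 FPKM) called lower, and *Des*, an intermediate filament of muscle and stellate cells, was called lower as well (16.7 against 39.2 FPKM). Of the kidney and gonad genes, *Lhx9* was called lower (1.05 against 3.89 FPKM) and *Six2* higher (9.34 against 1.22 FPKM), and none of the 10 fibroblast genes was called. The part of other cells in the *Wt1* difference was not tested. *Upk3b*, *Upk1b* and *Msln* were lower in both 2i-MEF libraries than in any MEF library, with overlapping intervals only for *Upk1b* against WT MEFs with DMSO, but strain, sex, origin and culture differ between the 2 kinds of fibroblast and cannot be told apart.

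In heart, none of the 9 genes was called between the genotype labels, where 2.18% of 13828 genes were called higher and 1.85% lower. The ratios of the KO-labelled library to WT ran from -0.49 at *Sema3d* to 0.18 at *Msln*. The intervals of *Sema3d* (-1.29 to 0.32) and *Msln* (-1.16 to 1.54) did not exclude a 2-fold difference. *Upk3b* was lower by a ratio of -0.27 (interval -0.39 to -0.15, 33.8 against 41.0 FPKM), the 1 gene whose interval left out 0. *Lrrn4*, at -0.22, had an interval of -0.45 to 0.02. *Wt1* was at 0.14 (interval -0.28 to 0.57) and *Tcf21* at -0.02 (interval -0.26 to 0.21), so a 2-fold difference lay outside what their reads allow. The median was -0.10, against 0.0036 over all genes tested. Of the 15 other genes none was called, and their median was -0.20. Summed levels of hepatocyte genes were 33.6 FPKM in WT heart and 7.32 FPKM in KO-labelled heart, with 4 of 7 called lower, and erythroid genes summed to 19890 and 14320 FPKM. The 9 cardiomyocyte genes summed to 55300 and 52010 FPKM.

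In liver, 8 of the 9 genes were lower in the KO-labelled library than in WT, none by 2-fold on the scale of FPKM + 1. Most of all genes tested were lower there as well, as their median ratio of -0.08 was under 0. In FPKM itself *Aldh1a2* was 2.29-fold and *Msln* 2.23-fold lower, and with 0.1 added in place of 1 *Aldh1a2* was called lower. Over all 13279 genes tested, 1.39% were called higher and 2.3% lower. *Aldh1a2* was lower by a ratio of -0.65 (interval -1.03 to -0.26) and *Upk3b* by -0.41 (interval -0.66 to -0.16), and the intervals of the other 7 span 0. *Tcf21* was the gene at a positive ratio, 0.21. The median was -0.29, against -0.08 over all genes tested. Sums of other cells' genes also differed between these livers: fibroblast genes were at 546.6 FPKM in WT against 298.1 FPKM in KO-labelled liver, smooth muscle genes at 44.2 and 26.8 FPKM, cardiomyocyte genes at 70.6 and 23.5 FPKM, hepatocyte genes at 18010 and 10990 FPKM, and erythroid genes at 58880 and 86820 FPKM. The 8 hepatic stellate cell genes, from cells that in the embryo derive in part from mesothelium, summed to 91.1 and 89.9 FPKM, with *Reln* at 36.3 and 42.4 FPKM. The part of these cells in the lower values was not tested.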

How the data were processed

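The 10 RNA-seq libraries, 1 for each condition, were analysed, and the 16 DNA methylation samples were not used here. The authors prepared libraries with a stranded mRNA kit, trimmed them with cutadapt, aligned the reads to mm10 by TopHat2 and Bowtie2 on a GENCODE annotation, kept uniquely mapped reads and deposited FPKM values from Cufflinks 2.2.1 (version per the submitters' processing notes), without read counts. The deposited FPKM table has 52609 gene rows, and the 155 rows that repeat a symbol were summed. The 9 genes have 1 row each.

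Ratios were taken as log2 of FPKM + 1 without further scaling, genes with at least 1 FPKM in 1 of the 2 libraries were tested, and at least 2-fold on this scale was a call. The pseudocount of 1 understates the change of low genes. Depth was estimated from genes with 1 transcript of at least 1500 bases and a fragment length of 200 bases. Between 97.9% and 98.9% of their values under 10 reads lay within 0.1 of a whole number of reads. Transcript lengths and strands came from GENCODE M21, in which 50561 of 52462 matched genes start at the same base (the bounds of *Upk1b* and *Msln* differ, and the authors used M15), and promoters from RefSeq. The reads carry no molecular identifiers. The estimate was tested on simulated data.

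By rule the genes named are the 9 members, *Dnmt3a*, *Wt1os*, the 3 genes closest to each member and up to 4 genes of a list with the highest mean FPKM. The list genes in the text were instead chosen after their values were seen, because they were called, at or near 0 or markers of a list, and overlapping annotated genes are named as such. Members and lists were chosen with earlier results of these data known. Alternatives were a pseudocount of 0.1, centred ratios, the row with the highest mean, a filter on low values and, for the depth, transcripts of at least 3000 bases. Python 3.11.15, numpy 2.4.6, pandas 2.3.3, scipy 1.17.1 and matplotlib 3.10.9 were used.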

Additional observations from a re-analysis of the deposited data

Results flagged for a closer look

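*Upk3b*, a uroplakin of mesothelial cells, went opposite ways between the genotype labels in cultured cells and in organs. In MEFs with DMSO it was higher in the library labelled *Dnmt3a* KO by 1.58 on the log2 scale of FPKM + 1 (40.5 against 12.9 FPKM), whereas it was lower in the corresponding heart (33.8 against 41.0 FPKM, ratio -0.27) and liver (3.20 against 4.57 FPKM, ratio -0.41). Each of these 3 ratios had a counting interval that left out 0. The MEF ratio of *Upk3b* exceeded that of heart by 1.85 and that of liver by 1.99. Gaps of similar size were found at *Upk1b* (2.02 and 2.05), *Lrrn4* (1.82 and 1.88) and *Wt1* (1.52 and 2.08). *Upk1b*, *Lrrn4*, *Aldh1a2* and *Sema3d* had the same signs as *Upk3b*, but not all of their intervals left out 0. These differences were not tested, because each condition has 1 library, and the MEF comparison is the one the genes were chosen on. *Dnmt3a* was itself higher in the library labelled *Dnmt3a* KO in MEFs and heart and lower in liver.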

How the results depend on the processing

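With a pseudocount of 0.1 in place of 1, the median log2 ratio of the 9 genes between MEFs labelled *Dnmt3a* KO and WT became 1.64 with DMSO (1.14 with a pseudocount of 1) and 2.41 with GSK126 (1.61), the median of heart against liver among organs labelled *Dnmt3a* KO became 3.16 (2.39), and *Aldh1a2* became the 1 gene called lower in the liver labelled *Dnmt3a* KO, where none was called with a pseudocount of 1. The limits were 1.5 times for a count and the counting interval for a ratio or median. The other 23 counts and medians stayed within them, as did 62 of the 81 ratios of single genes, and 19 ratios moved beyond their counting intervals. The count of genes called higher with GSK126 went from 6 to 7, with *Tcf21* (2.85) added. No ratio changed direction. Centring on the median of all genes and taking the row with the highest mean moved none of these 81 ratios and none of the 27 counts and medians beyond those limits, nor did the filter on low values move any of the 27. Depth estimated from transcripts of at least 3000 bases gave the same values within the limits in all 10 libraries. No replicate could be left out because each condition has 1 library. Heart and liver were compared within each genotype label, and no test was run across the 2 labels as replicates, since it is not stated whether organs whose titles share a number came from the same embryo. *Msln* had few reads in liver, with 1 to 26 in WT and 1 to 11 in the library labelled *Dnmt3a* KO, depending on the transcript. The 2i-MEF libraries were the shallowest. There the intervals of *Upk1b* (-1.13 to 2.16), *Msln* (-2.68 to 2.31) and *Sema3d* (-0.79 to 1.45), on the shortest transcript, did not exclude a 2-fold difference.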
